A study of Mus musculus with 3 samples.

Results

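The 47 genes described here encode proteins that copy the genome in S phase and divide it in mitosis. They were chosen by name, from lists of known cell cycle functions made with earlier results of these data known, and each symbol was matched to a single row of the deposited table, so that 47 of the 46603 genes in the table are covered. By role they fall into 11 origin licensing genes, 12 genes of DNA synthesis and nucleotide supply, 11 genes of cyclins, their kinases and the transcription factors around them, and 13 mitotic genes. Polyadenylated RNA was sequenced in 3 libraries of KO-actin cells, which are mouse embryonic fibroblasts (MEFs) that lack β-actin and express β-actin tagged with a nuclear localization signal (NLS). All 3 libraries share this genotype and received no treatment that the labels name, so the comparisons are between genes and between libraries and not between conditions. The strain, the embryonic age, the vector that carries the tagged actin and the growth state of the cells at harvest are not given in the sources used here. The labels do not say whether the 3 libraries came from separate cultures, so p-values measure only the spread between these libraries.

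A dividing cell first licenses its origins: the origin recognition complex (ORC), CDC6 and CDT1 load the ring-shaped MCM2-7 helicase onto DNA, and geminin, encoded by Gmnn, blocks CDT1 once S phase has begun. CDC45 and MCM10 then help to switch the helicase on, polymerases synthesise DNA on the sliding clamp PCNA, and enzymes such as ribonucleotide reductase supply the nucleotides. Cyclins E, A and B drive CDK2 and CDK1 in turn, and the kinases, kinetochore proteins and checkpoint proteins of mitosis follow. Many of these genes are transcribed in phases, those of S phase through E2F sites and those of G2 and M phase through the cell cycle genes homology region (CHR) and CCAAT boxes. Cultured MEFs are a common model of this cycle.

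The libraries held between 44383636 and 49932446 counts, with TMM factors between 0.994 and 1.01. Of 9 fibroblast markers 8 were above 3 counts in every library, the floor below which a gene is not told from 0 here, with a summed level of 12424 to 13439 CPM (the count relative to the TMM-scaled library size), and Fap was the exception with 0, 0 and 1 counts. Pdgfra, also a fibroblast marker, was low at a mean of 4.97 CPM. The 4 epithelial markers summed to at most 1.79 CPM and the 4 endothelial to at most 2.54. The 4 blood markers summed to at most 0.386 CPM and the 4 neuronal to at most 6.36. Above the floor in every library were 1 of 4 epithelial, 2 of 4 endothelial, 0 of 4 blood and 4 of 4 neuronal markers. Among these, Syt1 had 131, 109 and 146 counts and Kdr 113, 110 and 79. Epcam, Cdh5 and Ptprc had at most 1 count in any library. Actb, the targeted gene, had 1078, 1114 and 1063 CPM, which does not check the genotype, since gene counts cannot separate the tagged transgene from the knocked-out locus. Replicate 2 stood apart from the other libraries in step with GC content, and its values are given beside the results it touches.

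All 47 genes were above 3 counts in every library, with 886 counts as the lowest single value and 33133 as the highest. Together they held 0.867%, 0.860% and 0.869% of the counts of replicates 1, 2 and 3. For comparison between genes, CPM was divided by the kilobases of annotated exon of each gene. On this scale the members ran from 3.87 for Cdc25c, the phosphatase that activates CDK1, to 174.7 for Pcna, the sliding clamp. Their median was 34.2 ± 0.719 (SD, n = 3), against 7.19 for the 12087 protein-coding genes that passed a minimum of 10 counts in each library. Above the 75 percentile of those genes lay 34 of the 47 members, and above the 90 percentile 18 of 47. Only Cdc25c fell below the median of protein-coding genes. In bulk RNA, fewer cells in a phase of the cycle and less RNA per cell cannot be told apart, so these levels say nothing of how many cells were in S phase or mitosis.

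**Figure D1:**
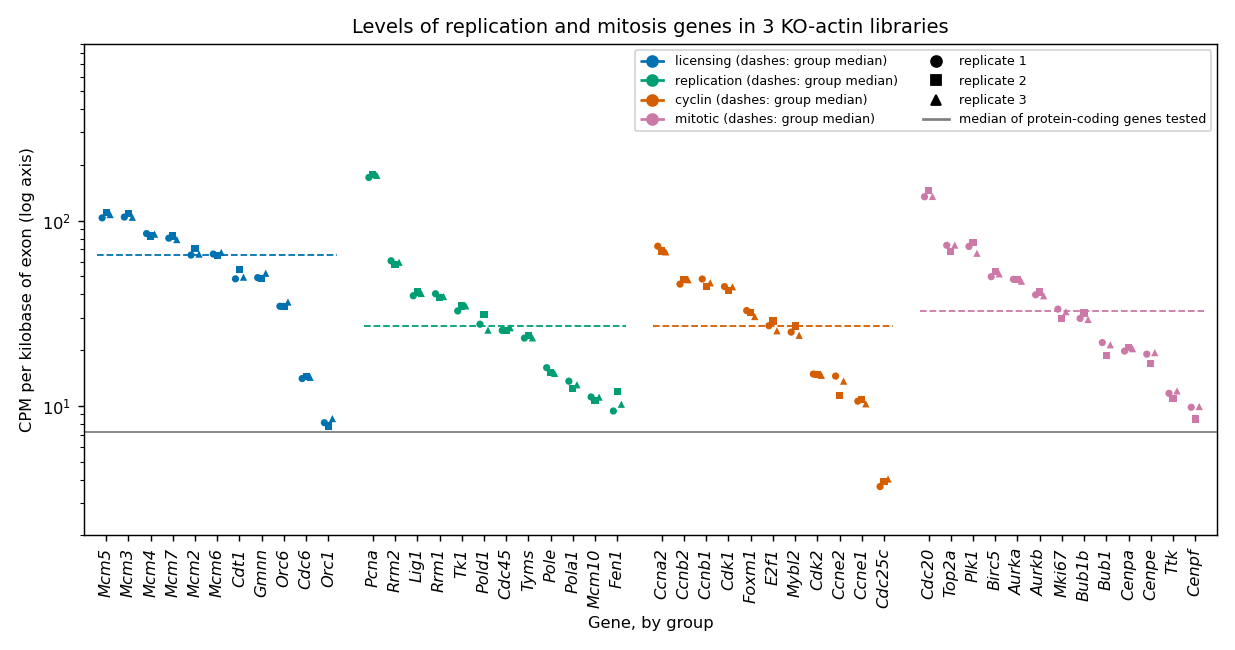
Level of each of the 47 genes in CPM per kilobase of exon, on a log axis, in replicates 1 (circles), 2 (squares) and 3 (triangles), by functional group. Dashes mark group medians, from 65.3 for licensing to 27.0 for replication genes, and the grey line the median of protein-coding genes tested, 7.19; the 3 libraries lie close together for every gene.

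**Figure D2:**
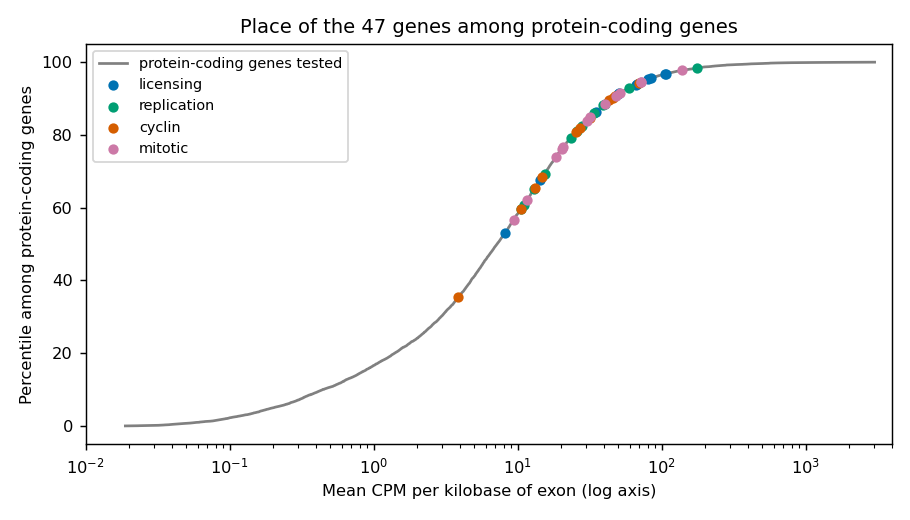
Cumulative distribution of mean CPM per kilobase (log axis) over 12087 protein-coding genes, with the 47 genes marked by group. All but Cdc25c, at the 35.4 percentile, lie above the median, and 18 of 47 lie above the 90 percentile.

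The licensing genes had the highest group median, 65.3 ± 0.695 CPM per kilobase (SD, n = 3), and were above the other groups in each library, with 65.3, 64.6 and 66.02 in replicates 1 to 3. Their median was also the highest when the longest transcript was taken as the length. The 6 subunits of the MCM2-7 ring were the highest of the group per kilobase. The other licensing genes lay between 8.15 for Orc1 and 50.9 for Cdt1. Mcm2 had 454, 493 and 459 CPM in replicates 1 to 3, Mcm5 had 414, 442 and 431, and Mcm3 had 393, 409 and 392. Mcm7 had 356, 366 and 350 CPM, Mcm6 308, 302 and 315, and Mcm4 306, 297 and 304. Mcm2, Mcm3 and Mcm5 were highest in replicate 2, while Mcm4 and Mcm6 were lowest there. Per kilobase the 6 subunits, which assemble in equal numbers, lay between 66.05 for Mcm6 and 107.4 for Mcm5, a range of 1.63-fold, or of 1.90-fold with the longest transcript as length. All 6 were above the 93 percentile of protein-coding genes. The Mcm7 value is less certain, because 34.2% of the 50-base windows of its transcript also occur in other genes, chiefly the processed pseudogene Gm5487, and exons of its neighbours overlap it on both strands.

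The factors that load this ring were lower and less even. Cdt1 had 152, 171 and 156 CPM, and its inhibitor Gmnn 72.2, 71.6 and 76.3. Their levels per kilobase were close, 50.9 ± 3.23 for Cdt1 and 50.1 ± 1.73 for Gmnn (SD, n = 3). Cdc6, the ATPase that joins ORC at origins, had 73.5, 75.3 and 74.6 CPM, and was among the members whose libraries differed least. Orc6, the smallest ORC subunit, had 85.3, 85.0 and 89.8 CPM, and Orc1, the largest, 28.3, 27.1 and 29.7. Per kilobase Orc6 stood at 35.1 ± 1.11 and Orc1 at 8.15 ± 0.376 (SD, n = 3), the lowest of the licensing group. An exon of Gm12743 lies across 10.8% of the exonic length of Orc1 on the opposite strand, and Gm12743 itself had 17 to 30 counts.

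The replication genes had a median of 27.0 ± 1.17 CPM per kilobase (SD, n = 3) and the widest range upwards. Pcna, on chromosome 2 of GRCm38 from 132249162 to 132253314, had 411, 425 and 422 CPM. That placed it at rank 198 of the 12087 protein-coding genes per kilobase. Of its 50-base windows 31.8% occur in other genes, and the pseudogene Pcna-ps2 was counted at 4.15 CPM. Ribonucleotide reductase pairs a large subunit, Rrm1, with a small one, Rrm2. Rrm1 had 444, 423 and 429 CPM, and Rrm2 168, 161 and 165. Of the enzymes of thymidylate supply, the salvage kinase Tk1 had 169, 180 and 180 CPM and the synthase Tyms 142, 146 and 142. Of the catalytic subunits of the replicative polymerases, Pola1, of the priming polymerase, had 120, 110 and 115 CPM. Pold1, of the lagging strand, had 134, 151 and 125, and Pole, of the leading strand, 180, 169 and 167. Per kilobase Pola1 stood at 13.0, Pole at 15.4 and Pold1 at 28.1, so their order depended on the division by length. In replicate 2 Pold1 was highest and Pola1 lowest. Cdc45 had 89.6, 89.6 and 92.7 CPM and Mcm10 had 86.0, 81.9 and 85.8, and neither passed the chi-square test of its libraries described further on. Mcm10, which is no subunit of the ring, stood at 10.997 CPM per kilobase.

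Lig1 and Fen1 both finish Okazaki fragments, Fen1 as the flap nuclease and Lig1 as the ligase, but were counted at very different levels. Lig1 had 168, 176 and 173 CPM, and Fen1 22.7, 29.0 and 24.7, the second lowest of all 47 members. Fen1 lies on chromosome 19 from 10199132 to 10204169 on the minus strand, and exons of Gm10143 and Tmem258 cover 84.2% of its exonic length on the opposite strand. Gm10143 had 30 to 38 counts and Tmem258 80.2 CPM. Whether counting used the strand is not given in the sources used here, and counters that ignore it leave out reads that fall on overlapping genes, so the Fen1 value is uncertain. Divided by the 383 bases of Fen1 exon that no other gene overlaps, its level would be 66.6 in place of 10.5 CPM per kilobase; this length was chosen after the Fen1 value was seen, and the part of the overlap in the low count was not tested.

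The cyclin group had a median of 27.1 ± 1.65 CPM per kilobase (SD, n = 3), which differed from that of the replication genes by less than the spread between libraries. Ccna2, whose cyclin A2 works in S phase and at mitotic entry, led it with 297, 280 and 277 CPM and 69.8 per kilobase. Cdk1, the mitotic kinase, had 218, 207 and 217 CPM. Its cyclin B partners had 204, 186 and 195 CPM for Ccnb1 and 69.6, 73.9 and 73.5 for Ccnb2. The Ccnb1 value is less certain, since 42.1% of its 50-base windows occur in other genes, although the pseudogene Ccnb1-ps took only 0.493 CPM. Cdk2 had 92.4, 92.1 and 91.0 CPM, the steadiest of the 47 members. Its partners, the G1/S cyclins, were lower: Ccne1 had 28.3, 28.9 and 27.3 CPM, and Ccne2 50.7, 39.9 and 47.6, lowest in replicate 2. Exons of Ints8 lie across 17.4% of the exonic length of Ccne2 on the opposite strand, and exons of Exosc9 across 12.5% of Ccna2. Among the transcription factors, Foxm1, which drives G2 and M phase genes, had 188, 184 and 175 CPM. Mybl2, which encodes B-MYB, had 116, 125 and 112 CPM, and E2f1, an activator of S phase genes, 85.5, 90.7 and 80.3. Cdc25c was lowest of all members, with 18.1, 19.3 and 19.8 CPM. Mybl2 and Cdc25c share 23.9% and 22.2% of their windows with other genes, chiefly Gm3320 and Gm3550.

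The mitotic genes had a median of 32.5 ± 0.805 CPM per kilobase (SD, n = 3). Top2a, the topoisomerase that untangles sister chromosomes, was the member with the most counts: it lies on chromosome 11 from 98992943 to 99024189 and had 664, 616 and 666 CPM. Its level fell below those of Cdc20 and Pcna per kilobase, at 71.96. Cdc20, the activator of the anaphase-promoting complex, had 252, 273 and 253 CPM and 138.7 per kilobase. Plk1, a kinase with several tasks in mitosis, had 160, 168 and 147 CPM. Of the chromosomal passenger genes, Aurkb had 117, 122 and 116 CPM. Its partner Birc5, which encodes survivin, had 170, 180 and 176. Aurka, the kinase of the spindle poles, had 122, 122 and 119 CPM. Mki67, the proliferation marker that coats mitotic chromosomes, had 335, 298 and 325 CPM, with replicate 2 below both others.

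The remaining mitotic members belong to the centromere and its checkpoint. Cenpa, the histone H3 variant of centromeres, had 116, 121 and 119 CPM. The kinetochore motor Cenpe had 164, 147 and 167 CPM, and Cenpf, a large coiled-coil protein, 152, 131 and 153. Cenpf was the lowest of the mitotic group per kilobase, at 9.42, having the longest exons of all members, 15433 bases. The checkpoint kinase Bub1 had 95.7, 81.3 and 93.1 CPM, its relative Bub1b, which encodes BUBR1, 127, 136 and 125, and the kinase Ttk 57.6, 53.9 and 59.3. Replicate 2 was lowest for Cenpe, Cenpf, Bub1 and Ttk and highest for Bub1b.

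The order of the lower groups depended on the length used. Per kilobase of annotated exon the mitotic genes were above the replication and cyclin genes in each library, but with the longest transcript as length the medians were 40.8 for replication, 35.3 for mitotic and 32.2 for cyclin genes. The length of the transcripts made in these cells is not known, and annotated exons include introns kept in minor transcripts. Without replicate 2 the medians were 65.8 for licensing, 26.4 for both replication and cyclin, and 32.9 for mitotic genes. Since members were chosen by name with results known, no p was computed for a group.

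In 11 pairs of related genes, the ratio of CPM per kilobase was compared within each library. An exact sign-flip permutation test over 3 libraries (two-sided) cannot give a p below 0.25, and each pair with the same direction in 3 of 3 libraries reached that value, or 0.306 after Benjamini-Hochberg adjustment over the 11. The largest ratio was that of Orc6 to Orc1, 4.31-fold, with log2 values of Orc1 over Orc6 of -2.09, -2.14 and -2.09 in replicates 1 to 3. Cdk1 exceeded Cdk2 2.94-fold, with log2 values of 1.57, 1.504 and 1.59, and 1.74-fold with the longest transcript as length. Cenpe exceeded Cenpf 1.96-fold, Tk1 exceeded Tyms 1.44-fold and Bub1b exceeded Bub1 1.47-fold, each in 3 of 3 libraries and also with the longest transcript as length. Aurka was 1.19-fold above Aurkb, Foxm1 1.25-fold above Mybl2 and Ccne2 1.24-fold above Ccne1, again in 3 of 3. With the longest transcript as length the same ratios were 1.05-fold for Aurka, 1.22-fold for Foxm1 and 1.08-fold for Ccne2. With the exon length free of other genes, chosen after the data were seen, the log2 ratio of Ccne1 to Ccne2 was -0.59. Its mean per kilobase of exon was -0.31. Per kilobase of exon the log2 ratio of Ccne1 to Ccne2 in replicate 2 was -0.075, against -0.45 and -0.41 in the others. Cdt1 against Gmnn (log2 mean 0.023 ± 0.12, SD, n = 3; p = 1.0, exact permutation) and Ccnb1 against Ccnb2 (log2 mean -0.032 ± 0.11, SD, n = 3; p = 0.75, exact permutation) did not keep 1 direction over the libraries. Rrm2 was 1.52-fold above Rrm1 per kilobase of exon, but 1.05-fold below it with the longest transcript as length, so this order rests on the length. Without replicate 2 the log2 mean was -0.43 for Ccne1 over Ccne2 and -0.44 for Bub1 over Bub1b, against -0.31 and -0.55 with it, and the sign turned for Cdt1 over Gmnn, to -0.046, and for Ccnb1 over Ccnb2, to 0.018.

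**Figure D3:**
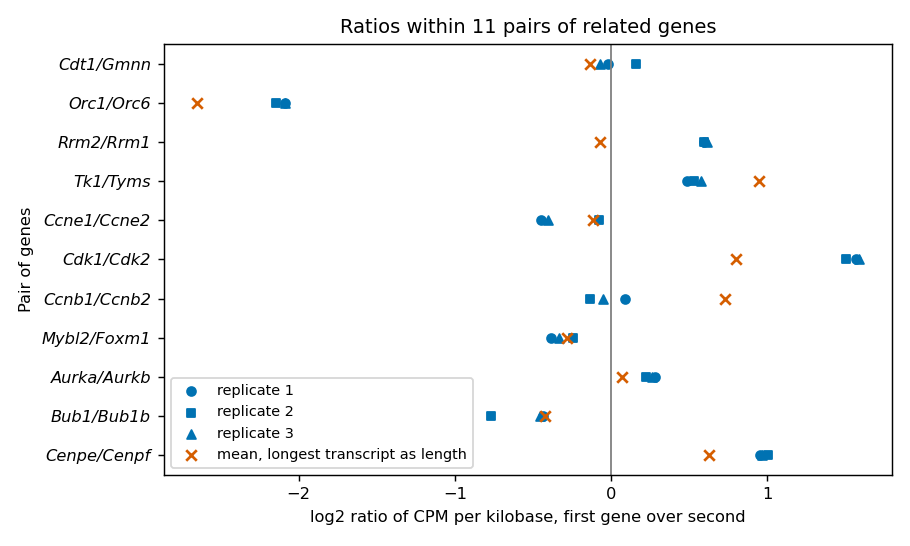
log2 ratio of CPM per kilobase of exon, first gene over second, for 11 pairs of genes, in replicates 1 (circles), 2 (squares) and 3 (triangles), with the mean of the 3 when the longest transcript is the length (crosses). Orc1/Orc6 lies farthest from 0 near -2.1, Cdk1/Cdk2 near 1.55, and Rrm2/Rrm1 and Ccnb1/Ccnb2 change sign with the length.

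The groups were also compared by their promoter sequences, which the choice of members by name had not used directly. The motifs searched are those through which genes of these phases are known to be transcribed, so the shares are not independent of that choice. RefSeq start sites on GRCm38.p6, with 250 bases before and 50 after each, were matched for 39 of the 47 members, in 43 windows. No window was matched for Gmnn, Mcm4, Pole, Ccne2, Ccna2, Cdc25c, Foxm1 or Aurkb. Both strands were searched for an E2F site (TTTCCCGC, TTTCGCGC, TTTGCCGC or TTTGGCGC), a CHR (TTTGAA or TTTAAA) and a CCAAT box (CCAAT), and none of these words is part of another. An E2F site was found in 7 of 9 licensing genes, 3 of 11 replication genes, 2 of 7 cyclin genes and 0 of 12 mitotic genes, against 4.82% of the 9918 genes past the count filter and 2.60% of all 27025 genes of the table. A CHR was found in 2 of 9 licensing, 4 of 11 replication, 4 of 7 cyclin and 11 of 12 mitotic genes, against 22.3% and 30.6%. A CCAAT box was found in 7 of 9, 6 of 11, 4 of 7 and 11 of 12, against 43.3% and 41.1%. CHR and CCAAT box occurred together in 10 of 12 mitotic genes and in 2 of 9 licensing genes, against 9.23% of the genes past the filter. Counting only bases before the start, an E2F site was found in 5 of 9 licensing, 1 of 11 replication, 2 of 7 cyclin and 0 of 12 mitotic genes, against 4.02% of genes past the filter. A CHR was then found in 2 of 9, 3 of 11, 4 of 7 and 7 of 12, against 20.4%, and the counts of CCAAT boxes were as before, against 40.9%. The median GC content of the windows was 57.5%, 53.8%, 64.7% and 57.8% in the 4 groups in the same order, and 61.0% in genes past the filter; its part in these shares was not tested. A match is a description of the letters and not a bound site, and a window without one says nothing about the factor.

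The stretches below show an example of each motif from the member with the highest level per kilobase in its group, among members where the motif lies before the start and the whole stretch, with up to 25 bases on each side, lies outside annotated exons. Cdc20, the highest mitotic member, has a CHR at -18 but is passed over for Top2a because its stretch runs into an annotated exon. Each runs 5′ to 3′ on the strand of the gene, with the motif in capitals; GCGCCAAA and TTCAAA are an E2F site and a CHR read on the other strand, TTTAAA reads the same on both, and positions count back from -1 at the base before the start. The E2F sites in capitals lie at -149 for Mcm5 (chr8:75109335-75109392, plus strand), -138 for Pola1 (chrX:93632261-93632318, minus strand) and -131 for Cdk1 (chr10:69353011-69353068, minus strand). The Mcm5 stretch also holds an overlapping E2F site, TTTCGCGC, read on the strand of the gene. This overlapping site begins in the lower-case bases just before the capitals.
Mcm5: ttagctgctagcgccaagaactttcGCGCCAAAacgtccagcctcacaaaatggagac
Pola1: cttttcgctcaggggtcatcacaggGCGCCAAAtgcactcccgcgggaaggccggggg
Cdk1: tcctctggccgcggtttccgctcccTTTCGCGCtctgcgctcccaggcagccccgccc

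The CHR elements lie at -221 for Mcm5 (chr8:75109263-75109318, plus strand), -128 for Tk1 (chr11:117826112-117826167, minus strand), -167 for Ccnb2 (chr9:70421691-70421746, minus strand) and -23 for Top2a (chr11:99024190-99024237, minus strand). Of these the Top2a element is the one nearest to the start.
Mcm5: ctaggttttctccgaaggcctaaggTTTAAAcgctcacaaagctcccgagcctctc
Tk1: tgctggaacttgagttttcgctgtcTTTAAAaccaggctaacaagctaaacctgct
Ccnb2: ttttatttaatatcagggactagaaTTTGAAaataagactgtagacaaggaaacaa
Top2a: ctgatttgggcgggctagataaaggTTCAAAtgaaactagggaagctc

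The CCAAT boxes lie at -22 for Mcm5 (chr8:75109462-75109508, plus strand), -50 for Rrm2 (chr12:24708179-24708233, plus strand), -21 for Ccnb2 (chr9:70421555-70421600, minus strand) and -53 for Cdc20 (chr4:118437367-118437421, minus strand). Ccnb2 holds 3 such boxes before its start and Top2a 6, the most of any member.
Mcm5: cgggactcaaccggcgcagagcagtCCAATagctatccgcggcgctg
Rrm2: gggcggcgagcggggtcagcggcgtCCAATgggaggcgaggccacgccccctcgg
Ccnb2: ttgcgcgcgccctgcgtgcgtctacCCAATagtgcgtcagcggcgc
Cdc20: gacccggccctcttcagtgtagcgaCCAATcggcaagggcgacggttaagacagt

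Between libraries the members varied little in size. The highest library exceeded the lowest by a median of 1.07-fold over the 47 members and of 1.11-fold over the 13814 genes tested. The members had more counts: the median of mean CPM was 145 for them and 27.5 for the genes tested. Lower counts carry more counting error, so these values do not show that the members were steadier at equal depth. The largest difference among members was 1.28-fold, for Fen1, whose value is uncertain. At these counts small differences were still measurable: when the counts of a gene were set against shares in proportion to library size (chi-square test, Benjamini-Hochberg adjustment over every gene tested), 36 of the 47 members were called at an adjusted p threshold of 0.05, where 43.9% of all tested genes were called. The test finds smaller differences in genes with more counts, and 52.0% were called among genes with 100 counts or more in each library, which all 47 members have. The lowest single count of a member was 886, so these shares are not matched to the members in depth. The same holds for the shares of called genes given below. With a difference of at least 1.2-fold required as well, 3 members remained, Fen1, Ccne2 and Pold1, where 11.4% of all genes did. By group the calls were 9 of 11 licensing, 9 of 12 replication, 8 of 11 cyclin and 10 of 13 mitotic genes. The 11 members that were not called were Orc1, Cdc6, Mcm10, Cdc45, Tyms, Ccne1, Cdk2, Cdc25c, Aurka, Aurkb and Cenpa.

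Replicate 2 was the library farthest from the others for 22 of the 36 called members. It was above them for 9, where 14.0% of all genes tested were called in this way, and below them for 13, where the share was 12.0%. Members of a like role lay on opposite sides: Bub1 was lower in replicate 2 by a log2 difference of -0.22 and Bub1b higher by 0.11, and Pola1 was lower by -0.097 and Pold1 higher by 0.22. The direction followed the GC content of the transcripts. In the 16 members with at most 46.6% GC, 14 were below the other libraries in replicate 2, with a median log2 deviation of -0.10. Of the 16 members with at least 51.7% GC, 0 were below, with a median of 0.088. Ccne2, at 35.0% GC the lowest of all members, had the most negative deviation, -0.30, and Fen1, at 53.8%, the most positive, 0.29. The Fen1 count is uncertain because of the overlap given above. Tmem258, which overlaps it, was also highest in replicate 2, with 3643, 4357 and 3540 counts, and its part was not tested. Pearson's r of deviation with GC content was 0.85 across the 47 members and 0.35 across all tested genes with a known GC content, as a description, since genes of 1 library share its preparation.

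**Figure D4:**
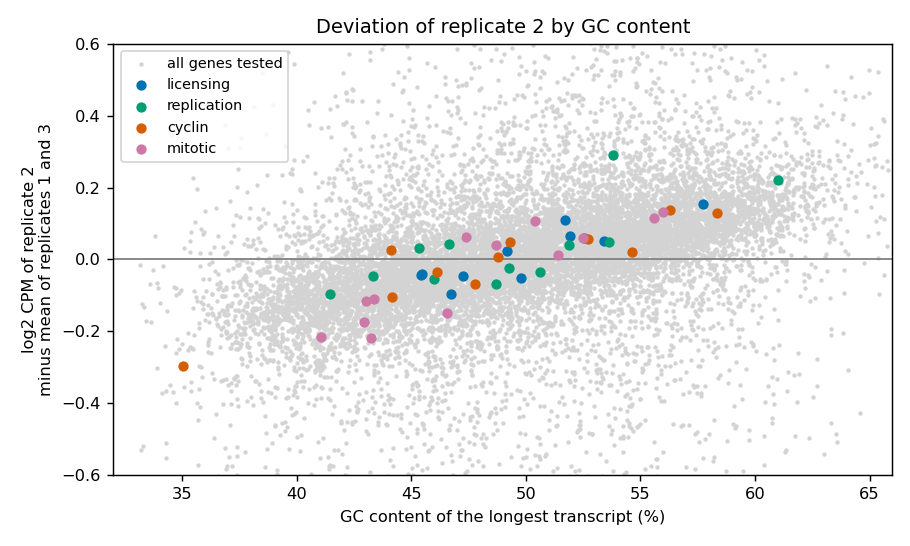
log2 CPM of replicate 2 minus the mean of replicates 1 and 3, against GC content of the longest transcript in percent, for the 47 genes by group and for all tested genes in grey, of which 535 of 13770 lie outside the axes. Of the 16 members with at most 46.6% GC, 14 lie below 0, down to -0.30 for Ccne2. Of the 16 with at least 51.7% GC, 0 lie below.

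With library sizes set within 50 bins of GC content, 22 of the 47 members were called, where 29.9% of all genes were. The lowest adjusted p among members were then those of Mcm2 and Mki67, with replicate 2 still farthest from the others. Its log2 difference was 0.091 for Mcm2 (adjusted p = 1.5e-12, chi-square with Benjamini-Hochberg adjustment) and -0.11 for Mki67 (adjusted p = 5.0e-13, same test). For Mki67 replicate 1 lay at 0.088, on the other side. Among other called members, replicate 2 differed by 0.23 for Fen1 and -0.13 for Cenpf. For Fen1 replicate 1 lay almost as far on the other side, at -0.21. Within the bins Pearson's r of the deviation of replicate 2 with GC content was 0.46 across the 47 members, so a relation remained. Without replicate 2, 11 members were called, where 12.9% of all genes were. Replicate 1 was above replicate 3 for 9 of these, Pold1, Pole, Rrm1, E2f1, Ccna2, Ccnb1, Foxm1, Plk1 and Mki67, and below it for 2, Mcm5 and Tk1. The differences were small, from -0.14 to 0.12 on the log2 scale over all 47 members, with a median of 0.0027.

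As a set the members lay near 0 in each library. Their median log2 deviation from the other libraries was -0.0064 in replicate 1, 0.0195 in replicate 2 and 0.0063 in replicate 3, where the medians of all tested genes were 0.0014, 0.0046 and -0.0039. By group the medians lay between -0.028, for licensing genes in replicate 1, and 0.025, for mitotic genes in the same library. For single members the SD of log2 CPM across libraries was 0.052 in the median, against 0.080 for all tested genes and 0.017 from counting error in the members. The tested genes have lower counts in the median, and depth was not matched in this comparison.

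A further 108 genes of the same pathways were set beside the members, and 107 of them were above 3 counts in every library. The exception was Cdkn1c, an inhibitor of cyclin-dependent kinases, with 0, 0 and 2 counts. Their median was 18.5 CPM per kilobase. In the other ORC and loading genes the level ran from 3.32 for Orc5 to 21.7 for Orc2, below Orc6 throughout. Among the genes of helicase activation Gins4, of the GINS complex, was highest at 54.7 and Ticrr lowest at 3.42. Accessory polymerase and clamp loader genes ran from 5.71 for Pole2 to 72.4 for Pold2, the small subunit of polymerase delta. Cdk4, the G1 kinase, was the highest of the list at 176.4, close to Pcna, and Ccnd2 the lowest of its group at 3.25. In the E2F and pocket protein group E2f4 led at 56.1 and Rb1 was lowest at 1.94.

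The mitotic genes of this list showed a similar span. Kinetochore and checkpoint genes ran from 5.07 for Knl1 to 27.0 for Mad1l1, and passenger, cohesion and cytokinesis genes from 19.5 for Sgo1 to 75.2 for Racgap1, a regulator of cytokinesis. Subunits and partners of the anaphase-promoting complex ran from 3.46 for Anapc10 to 71.9 for Anapc5. Of nucleotide supply genes Dtymk was highest at 46.6 and Rrm2b, the p53-inducible small subunit of ribonucleotide reductase, lowest at 3.43, and of the inhibitors Cdkn2c was highest at 43.2. The chi-square test called 70 of the 107 genes tested, where 43.9% of all tested genes were called, and 43 of the 107 within bins of GC content, where 29.9% were. Depth was not matched in these comparisons.

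Relatives of the members that are known for the germ line or for other tissues were at or near 0. Aurkc, the Aurora kinase of germ cells, had 0, 0 and 3 counts, against a mean of 121 CPM for Aurka and 118 CPM for Aurkb. Ccna1, the germ line cyclin A, had 0 counts in each library, and Ccnb3 0, 0 and 1. Cdc20b had 2, 1 and 3 counts and Plk5 3, 1 and 2. Ccno, a cyclin of multiciliated cells, was the only 1 of these 6 above the floor, with 51, 46 and 49 counts, a mean of 1.02 CPM. For the other 5 a level was not detectable at this depth, with counting error alone considered.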

How the data were processed

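Each library came as a table of counts for Ensembl genes that the authors deposited without normalization. The submitters' processing notes name Trimmomatic, FastQC, HISAT2 and HTSeq with the builds mm10 and GRCm38; versions, annotation, strand setting and the treatment of reads that match several genes are not given in the sources used here. Counts were scaled with edgeR 4.0.16 (TMM) under R 4.3.3. Exon lengths, GC content of the longest transcript and overlaps came from GENCODE M21 (GRCm38), and promoter windows from RefSeq (GRCm38.p6). Genes that reached 10 counts in each library entered a chi-square test (2 degrees of freedom, p-values adjusted by Benjamini-Hochberg over all of them). The test had been checked on counts simulated with counting error alone, apart from genes changed on purpose. That check does not cover other spread between libraries. The remaining steps used Python 3.11.15 with scipy 1.17.1, pandas 2.3.3 and numpy 2.4.6. Library totals ran from 44383636 to 49932446 counts.

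Members, gene lists, pairs and motifs were chosen with earlier results of these data known. All members could be named; of the other pathway genes the highest and lowest of each group were named, with those at 3 counts or fewer in a library and all germ line or tissue-restricted relatives. Sequences were shown for the member with the highest level per kilobase in its group that holds the motif before the start; the further condition that the whole stretch lie outside annotated exons was added after the windows were seen. Alternatives were other scalings (DESeq2 1.42.0 size factors or total counts), filters and lengths, bins of GC content and leaving out each replicate. KO and wild-type libraries were not analysed here.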

Additional observations from a re-analysis of the deposited data

How the results depend on the processing

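No paired analysis was possible because every library belongs to the same condition. Scaling by DESeq2 size factors or total counts moved no group median by 1 SD. Length mattered more. With the longest transcript as length the medians were 46.9 CPM per kilobase for all members, 70.8 for licensing, 40.8 for replication, 32.2 for cyclin and 35.3 for mitotic genes. Without division by length they were 148.4, 302.0, 154.7, 91.8 and 144.8 CPM, by construction on another scale. With the exon length free of other genes, an alternative chosen after the data had been seen, the median was 37.7 for all members and 31.7 for replication genes.

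With the longest transcript the log2 ratio became -0.14 for Cdt1 over Gmnn, -0.070 for Rrm2 over Rrm1 and 0.73 for Ccnb1 over Ccnb2, and without length -1.39 for Rrm2 over Rrm1 and 1.43 for Ccnb1 over Ccnb2. Leaving out a replicate gave -0.046 to 0.069 for Cdt1 over Gmnn and -0.094 to 0.018 for Ccnb1 over Ccnb2, both changing sign without replicate 2, so no order is given for either pair.

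The number of members called by the chi-square test, 36, was 22 within bins of GC content, 3 with a 1.2-fold difference required, and from 11 (without replicate 2) to 32 (without replicate 3) when a replicate was left out; tests on 2 libraries also have less power. Other scalings and filters gave 32 to 37. Median log2 deviations stayed near 0: with total counts 0.0061 in replicate 2 and 0.021 in replicate 3, within bins of GC content -0.0074 in replicate 3, and with a replicate left out -0.00050 to 0.021 in replicate 2 and -0.021 to -0.0027 in replicate 3. Depth limits the calls, since the test finds smaller differences at higher counts: Mcm4 was called at 1.03-fold between highest and lowest library, and Cdc25c, the member with fewest counts, was not at 1.10-fold.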
